A study of Mus musculus with 4 samples.

Results

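Cell cycle genes of the S and G2/M phases were read out in single-cell RNA sequencing (scRNA-seq) of mouse long bone, with cells captured in droplets. The 40 members were listed by symbol, and each matched 1 of the 53703 features of the libraries. By phase they were 3 G1 cyclins (*Ccnd1*, *Ccnd2* and *Ccnd3*), 16 genes of G1/S entry and DNA replication (called the S set here), 20 genes of G2 and mitosis (the G2/M set), and *Hmgb2*, a chromatin protein that was counted apart. There were 2 Lats2iECKO mutant and 2 control libraries, of stromal cells dissected at 12 weeks of age from the metaphyses of tibia and femur. Lats2iECKO mice carried loxP-flanked *Lats2* alleles and the Cdh5(PAC)-CreERT2 transgene, whose promoter drives the recombinase in endothelial cells (ECs), and received tamoxifen as juveniles. Controls were Cre-negative littermates that received the same tamoxifen, although their label reads untreated, so no group lacked the drug. The controls' *Lats2* alleles, and whether these animals carried the fluorescent reporter that was bred into the line, were not stated. All mice had a C57/BL6 background, and both sexes were used. Cells of blood lineages and cells with CD45 or CD117 were depleted with magnetic beads before capture. Nothing stated whether a library held 1 animal or a pool, so the p values measure only the spread between libraries.

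D-type cyclins switch on the kinases CDK4 and CDK6 in G1, which releases E2F factors from the retinoblastoma protein. E2F factors then drive the genes of DNA replication, among them the MCM helicase, its loading factors *Cdc6* and *Cdt1*, the sliding clamp *Pcna* and the enzymes that make deoxynucleotides. Genes of G2 and mitosis are held down in resting cells by the DREAM complex and switched on later by B-Myb and FoxM1, through a short promoter element called the CHR that often lies beside CCAAT boxes. LATS2 is a kinase of the Hippo pathway that holds back the transcriptional coregulators YAP1 and TAZ, whose activity controls organ size. In adult bone most stromal cells rest, while the growth plate keeps a zone of dividing chondrocytes (CHOs).

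Promoters are shown for 5 members as examples that hold the elements searched, and not every member of a phase set held them. Each runs from 250 bases before to 50 bases after an annotated start, 5′ to 3′, and comes from RefSeq on GRCm38.p6. Capitals mark matches on either strand to 3 kinds of element. The CHR was searched as TTTGAA and, in its other form, as TTCGAA. The CCAAT box was searched by the letters of its name, which read ATTGG when the box lies on the other strand. The E2F element was searched as TTTCCCGC, as TTTCGCGC, as TTTGCCGC and as TTTGGCGC. The first 3 are G2/M genes: *Cdk1* (chr10:69352863-69353162, minus strand), the kinase of mitotic entry; *Top2a* (chr11:99024140-99024439, minus strand), the topoisomerase that untangles chromosomes; and *Ccnb2* (chr9:70421505-70421804, minus strand), a B-type cyclin. The other two encode subunits of the MCM helicase, *Mcm5* (chr8:75109259-75109558, plus strand) and *Mcm6* (chr1:128359656-128359955, minus strand).
Cdk1: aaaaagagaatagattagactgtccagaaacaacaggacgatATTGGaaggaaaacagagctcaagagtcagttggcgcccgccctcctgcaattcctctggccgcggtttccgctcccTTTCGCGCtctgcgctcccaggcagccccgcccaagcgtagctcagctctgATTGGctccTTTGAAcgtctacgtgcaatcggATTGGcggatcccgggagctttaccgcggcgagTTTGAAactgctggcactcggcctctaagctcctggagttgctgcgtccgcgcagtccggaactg
Top2a: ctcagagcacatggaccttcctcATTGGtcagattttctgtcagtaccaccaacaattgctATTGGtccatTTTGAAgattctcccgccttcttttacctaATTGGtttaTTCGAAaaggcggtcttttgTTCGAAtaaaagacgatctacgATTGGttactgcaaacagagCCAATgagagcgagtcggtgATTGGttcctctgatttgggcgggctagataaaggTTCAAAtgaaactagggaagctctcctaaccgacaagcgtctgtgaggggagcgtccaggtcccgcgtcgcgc
Ccnb2: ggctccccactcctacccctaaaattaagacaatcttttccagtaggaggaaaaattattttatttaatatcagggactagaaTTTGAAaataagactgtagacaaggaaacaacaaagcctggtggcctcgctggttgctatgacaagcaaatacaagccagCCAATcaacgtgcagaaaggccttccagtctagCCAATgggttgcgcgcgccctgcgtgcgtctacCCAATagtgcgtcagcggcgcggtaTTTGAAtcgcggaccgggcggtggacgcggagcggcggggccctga
Mcm5: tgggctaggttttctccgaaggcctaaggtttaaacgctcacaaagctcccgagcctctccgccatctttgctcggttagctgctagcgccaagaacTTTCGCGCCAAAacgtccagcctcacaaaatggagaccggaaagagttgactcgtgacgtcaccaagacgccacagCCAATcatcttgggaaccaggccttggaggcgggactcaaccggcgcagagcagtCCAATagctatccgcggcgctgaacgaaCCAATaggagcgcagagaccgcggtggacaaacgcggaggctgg
Mcm6: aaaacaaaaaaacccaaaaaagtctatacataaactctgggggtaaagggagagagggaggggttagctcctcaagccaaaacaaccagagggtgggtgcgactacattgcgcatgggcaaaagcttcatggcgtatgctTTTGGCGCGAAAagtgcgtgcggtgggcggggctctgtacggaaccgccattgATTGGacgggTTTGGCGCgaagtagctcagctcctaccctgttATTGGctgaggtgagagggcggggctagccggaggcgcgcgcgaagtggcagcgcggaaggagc
Over all members, 32 of 40 had an entry in the promoter table, with 34 entries, and *Ccna2*, *Ccne2*, *Ccnd1*, *Ccnd2*, *Aurkb*, *Tpx2*, *Mcm4* and *Gmnn* had none. A CHR stood in 13 of the 17 G2/M promoters (76.5%), in 2 of the 14 S set promoters (14.3%) and in 19.2% of all 32851 promoters of the same length. A CCAAT box stood in 15 of the 17 G2/M promoters (88.2%) and in 9 of the 14 S set promoters (64.3%), against 37.4% of all promoters. An E2F element stood in 6 of the 14 S set promoters (42.9%), in 1 of the 17 G2/M promoters (that of *Cdk1*) and in 2.26% of all. The G2/M promoters thus held CHR letters more often than promoters at large, and the S set promoters E2F letters, while CCAAT was frequent in both sets. In *Mcm5* and *Mcm6* a pair of E2F matches on opposite strands overlapped. These are letter matches, with no measure of binding.

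**Figure D1:**
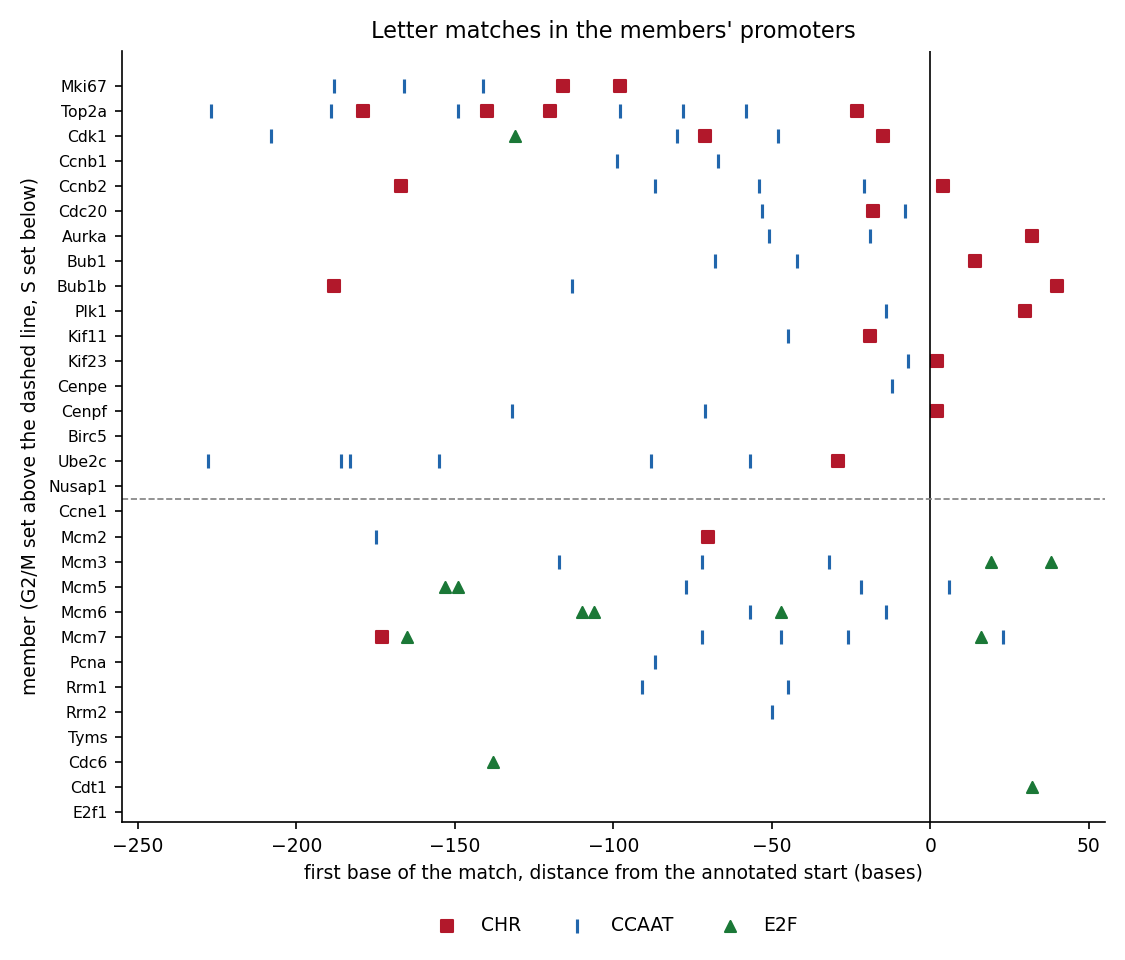
Letter matches in the promoters of members of the G2/M set (above the dashed line) and the S set (below it). The horizontal axis gives the first base of each match as the distance in bases from the annotated start; squares are CHR, bars CCAAT and triangles E2F. CHR squares fill the upper part, where 13 of 17 promoters held one, and E2F triangles the lower part.

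The 4 libraries held 69636600 to 85899079 UMIs, of which 27707 barcodes with at least 1000 UMIs and 800 genes were kept. Cell types were assigned by a marker gate that used none of the members, and 21084 barcodes with at most 15% mitochondrial UMIs passed it, nearly all in 8 classes and the rest as megakaryocytes or Schwann cells. The classes held 2400 ECs, 5407 bone marrow stromal cells (BMSCs), 1714 osteoblasts (OBs), 7509 CHOs, 1341 smooth muscle cells (SMCs), 483 fibroblasts and, in spite of the depletion, 1727 erythroid precursors and 222 leukocytes. Every marker of each class was detected in it except 1 of the 16 leukocyte markers, but the gate itself had chosen barcodes by these genes. Between 7 and 22 barcode sequences were shared by any pair of libraries. *Lats2* fell in ECs of mutants (log2 fold change −0.34, standard error 0.0889, adjusted p = 0.0063, edgeR), but so did Lats1 (−0.39, adjusted p = 0.0339), which was not deleted, and a UMI of *Lats2* was found in 50 and 50.6% of ECs of mutants and 56.1 and 51.7% in controls. The count covered the whole gene, deleted exons included, so it does not check the deletion. With 2 libraries against 2, an exact permutation test of a single value cannot give a p under 0.333. Adjusted p values below come from edgeR's quasi-likelihood test on counts summed per library and class, adjusted over all genes tested, and a member was called at an adjusted p of 0.05 or less. Levels are UMI counts scaled by library sizes normalised with TMM (normalised CPM), which compare libraries within a gene but not genes with each other.

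A barcode was counted as cycling when at least 3 of the 20 G2/M members had a UMI after each barcode was thinned to 2000 UMIs. Most cycling barcodes of every library were erythroid precursors, with 306 of 470 and 324 of 482 in mutants and 458 of 696 and 386 of 619 in controls. Among stromal classes, CHOs had the highest shares in controls, with 48 of 1428 (3.36%) and 48 of 1484 (3.23%). ECs stood at 8 of 653 (1.23%) and 4 of 635 (0.630%), BMSCs at 19 of 1941 (0.979%) and 14 of 1871 (0.748%), and SMCs at 2 of 255 (0.784%) and 2 of 259 (0.772%). Fibroblasts had 1 cycling barcode in 475 over all 4 libraries. OBs stood at 2 of 682 (0.293%) and 11 of 721 (1.53%). The 95% Clopper-Pearson intervals of CHOs in controls began at 2.49 and 2.39%, and intervals of ECs (control replicate 1, to 2.40%), OBs (control replicate 2, to 2.71%), SMCs (to 2.80 and 2.76%) and fibroblasts (to 3.16 and 4.56%) reached the lower of these values.

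Levels in controls were also tested for each class against the mean of the other 5 stromal classes. In CHOs, 35 of 40 members were higher and 2 lower, where 60.8% of all genes tested were called. The largest of these differences were in *Kif23* (log2 difference 3.18), a motor of cytokinesis, and *Aurka* (2.90), a spindle pole kinase, while *Ccnd2* (−1.01) and *Ccnd3* (−0.28) were the 2 lower members. *Kif23* was too low for a test of genotype in fibroblasts, and *Aurka* in SMCs and fibroblasts. The sizes of both differences therefore depend on the count added to low values. In ECs 13 members were higher and none lower, also with 60.8% of genes called. *Ccnd1* (2.06) led in ECs, followed by *Mcm3* (1.91), a helicase subunit that was likewise too low for a test of genotype in SMCs and fibroblasts. BMSCs had 2 higher and 4 lower members (59.2% of genes called), among them *Ccnd1* (−1.84). OBs had 11 higher and 9 lower members, with 54.7% of genes called, and 10 members were called without control replicate 2. SMCs had 1 higher member, *Ccnd2* (1.40), and 4 lower ones (37.5% of genes called). Their count of 5 ran from 2 without control replicate 2 to 9 without either mutant library, and was 3 without control replicate 1. Fibroblasts had 3 higher and 5 lower members (31.6% of genes called), and 3 called members without control replicate 2.

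**Figure D2:**
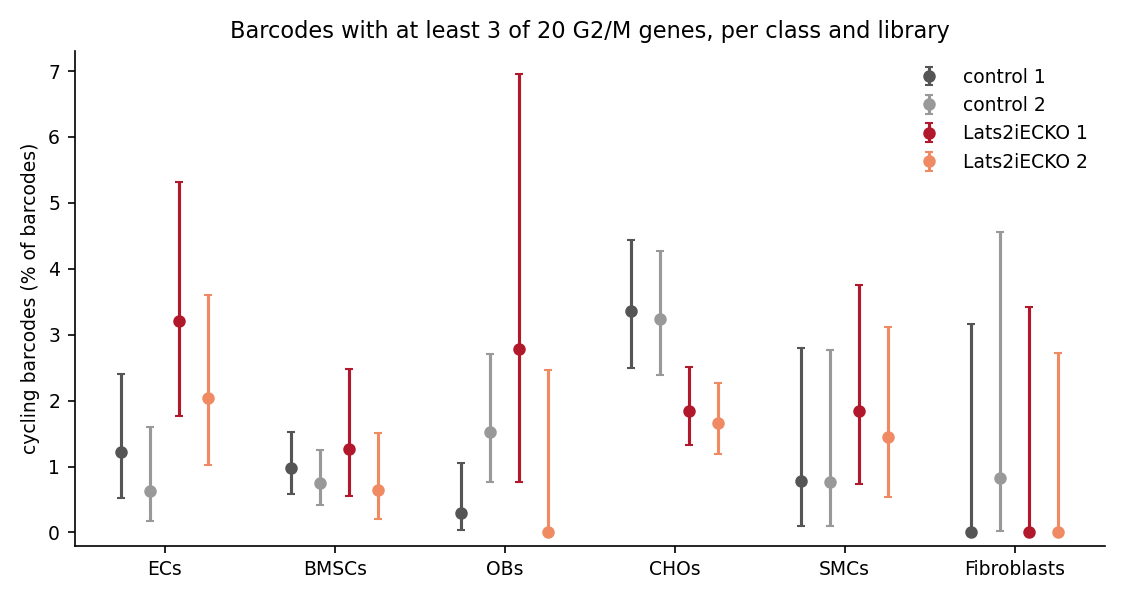
Share of cycling barcodes (percent of barcodes with at least 2000 UMIs) per stromal class in each of the 4 libraries. Points are libraries and bars exact 95% intervals for counting error. In ECs both mutants (3.20 and 2.03%) lie above both controls (1.23 and 0.630%), and in CHOs both mutants (1.85 and 1.66%) lie below both controls (3.36 and 3.23%).

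In ECs, the cells in which the recombinase was driven, genes of mitosis were higher in mutants. Of the 40 members tested, 22 rose and none fell, where 38.3% of all genes were called, 19.7% as higher and 18.7% as lower. The rise lay in the G2/M set, with 17 of 20 members, against 3 of 16 in the S set (*Rrm2*, *Tyms* and *Gmnn*), *Ccnd1* and *Hmgb2*. The median log2 fold change was 1.15 over the G2/M set and 0.19 over the S set, beside 0.00 over all genes tested. *Cdk1* stood at 9.73 and 13.3 normalised CPM in controls and at 38.9 and 24.4 in mutants. Both mutant libraries lay above both controls, with mutant replicate 1 the higher. The log2 fold change was 1.44 (standard error 0.216, adjusted p = 5.26e-05, edgeR). *Ube2c*, which loads ubiquitin for the anaphase-promoting complex, stood at 10.1 and 12.3 in controls and at 40.6 and 24.8 in mutants. Its log2 fold change was 1.53 (standard error 0.216, adjusted p = 2.85e-05), with the same order of libraries. *Ccnb1*, the cyclin partner of *Cdk1*, rested on fewer molecules, with 14 and 12 UMIs in controls and 42 and 39 in mutants (log2 fold change 1.73, adjusted p = 3.34e-04). *Mki67*, the proliferation marker, rose less, from 20.2 and 20.1 to 34.1 and 23.4 (log2 fold change 0.50, adjusted p = 0.0298).

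Other members that rose in ECs were *Top2a* (log2 fold change 0.79), the survivin gene *Birc5* (1.30) and *Aurkb* (1.76) of the chromosomal passenger complex, *Cenpf* (1.21) of the kinetochore, *Kif23* (1.29), *Tpx2* (1.11), which activates Aurora A on the spindle, the S/G2 cyclin *Ccna2* (1.23) and *Gmnn* (0.81), the geminin that blocks a repeat of replication. The 6 genes of the MCM helicase had log2 fold changes between −0.11 and 0.44, none of them called. *Pcna* stood at 66.5 and 59.8 in controls and at 73.5 and 74.7 in mutants (log2 fold change 0.23, adjusted p = 0.0635). Of the G2/M set, *Bub1*, *Bub1b* and *Plk1* were not called, at log2 fold changes of 0.85, 0.23 and 0.75. Among members called by edgeR in ECs, DESeq2 did not call *Mki67*, *Ccna2*, *Ccnb2*, *Aurka*, *Cenpe*, *Kif11*, *Rrm2*, *Tyms*, *Gmnn* or *Hmgb2*.

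The share of cycling ECs was 2.62% ± 0.828 (SD, n = 2) in mutants and 0.928% ± 0.421 (SD, n = 2) in controls, a ratio of 2.82. The mutants had 14 of 437 (interval 1.76 to 5.32%) and 11 of 541 (1.02 to 3.61%) cycling barcodes and the controls 8 of 653 (0.530 to 2.40%) and 4 of 635 (0.172 to 1.60%). Both mutants lay above both controls. The interval of mutant replicate 1 lay above that of control replicate 2, and the other pairs of intervals overlapped. Without thinning the shares were 5.95 and 4.55% against 2.88 and 2.06%. By the S set the groups overlapped, with 1.83 and 1.29% of ECs in mutants and 1.07 and 1.57% in controls carrying at least 3 S set members. The ratio was 1.72 when 2 G2/M members sufficed and 1.86 under a stricter gate, with mutants above controls in both.

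Cycling ECs held more UMIs than other ECs (medians 19226 and 6148), more often had 2 or more UMIs of erythroid markers (24.3 and 6.28%), and were more often called as doublets (37.8 and 2.51%). The makeup of the class also differed between genotypes. Among ECs with under 2 erythroid UMIs that were not cycling, the sinusoidal marker *Stab2* stood at 426 CPM in mutants and 1181 in controls, *Ramp3* at 44.5 and 115, and the tip cell gene *Apln* at 316 and 35.8 (sums over libraries, without TMM), and the part of this difference in the results was not tested. Among cycling ECs, 41.7% in controls and 16.0% in mutants had such erythroid UMIs, and 66.7 and 24.0% were called as doublets. Without called doublets, 10 of 413 and 9 of 522 ECs were cycling in mutants and 2 of 637 and 2 of 624 in controls, a ratio of 6.53. Of 19 G2/M members tested, 18 then rose. With 2 cycling ECs left in each control library, this count is a description and supports no statement on the set. Among ECs with under 2 erythroid UMIs the ratio was 3.99, and 17 of 19 rose. Summed over the 11 erythroid markers, ECs held 37.5 and 37.5 CPM without TMM in mutants and 64.9 and 47.5 in controls. The 16 leukocyte markers summed to 53.7 and 55.7 in mutants and 162 and 175 in controls, with 1 of them at 0 in every library, and the part of this RNA in the results was not tested. The median EC had 6781.5 and 6546 UMIs in mutants and 5701.5 and 5295 in controls, and the part of depth in the sums was not tested. DESeq2 called 12 members, and 12 and 14 were called without mutant replicate 1 and without control replicate 2. With cycling ECs left out, 8 G2/M members could be tested and 3 members of the 40 were called (*Ccnd1* higher, *Ccnd3* and *Bub1b* lower). For fits with cycling barcodes left out, here and below, cycling was counted before thinning. That setting left out 87 of 2400 ECs and 360 of 7509 CHOs, and so depends on depth. Cycling barcodes are defined by UMIs of the G2/M members themselves, so values with these barcodes left out are a description for that set.

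**Figure D3:**
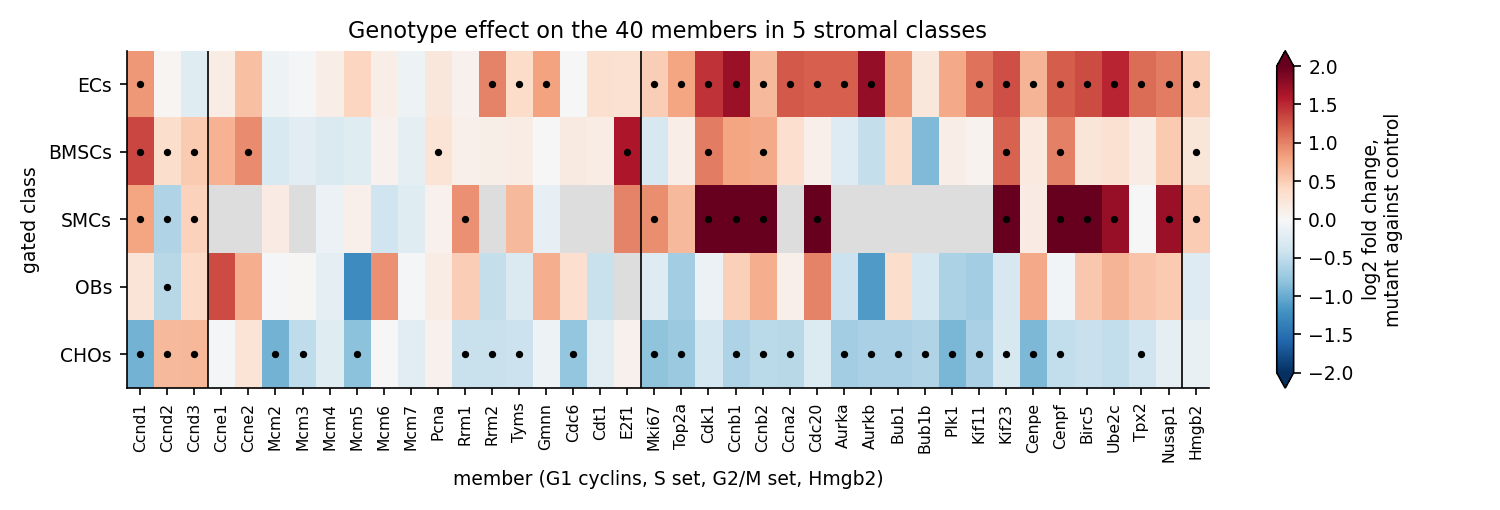
Log2 fold change (mutant against control) of each of the 40 members in 5 stromal classes, coloured from blue (lower in mutants) to red (higher), with colours capped at 2 in either direction. Dots mark members called in that class, and grey cells were not tested; members are ordered as G1 cyclins, S set, G2/M set and Hmgb2. ECs show 17 red dotted G2/M members and CHOs 15 blue ones.

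The D-type cyclins differed between classes in which of them changed and in which direction. *Ccnd1* (chr7:144483668-144493662 of GRCm39, minus strand) is a known target of several growth signals. In ECs it stood at 123 and 111 normalised CPM in controls and at 220 and 205 in mutants, a log2 fold change of 0.86 (standard error 0.0811, adjusted p = 3.32e-07, edgeR). In BMSCs it stood at 14.1 and 10.9 in controls and at 34.03 and 29.8 in mutants (log2 fold change 1.34, standard error 0.135, adjusted p = 2.83e-07). In CHOs it fell, from 85.2 and 82.1 to 42.8 and 44.3 (log2 fold change −0.94, standard error 0.0490, adjusted p = 1.10e-07). In none of these 3 classes did the groups overlap. More CHOs of mutants carried hypertrophic markers, as given below, and the part of this makeup in the D cyclins of CHOs was not tested. *Ccnd1* also rose in SMCs, from 28.9 and 22.0 to 50.7 and 37.9 (log2 fold change 0.79, adjusted p = 0.00336). It was not called in OBs (20.2 and 18.7 against 23.3 and 23.4) or fibroblasts (10.8 and 12.9 against 28.6 and 11.8).

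*Ccnd2* (chr6:127102125-127129156 of GRCm39, minus strand) had its highest control level in SMCs, at 272 and 274, and fell there to 162 and 199 in mutants (log2 fold change −0.60, standard error 0.0997, adjusted p = 4.06e-05). It fell in OBs too, from 69.8 and 64.2 to 42.8 and 48.5 (log2 fold change −0.55, adjusted p = 0.0178). It rose in CHOs from 53.1 and 62.5 to 88.0 and 94.0 (log2 fold change 0.65, adjusted p = 2.57e-05). In BMSCs it rose from 74.8 and 74.5 to 96.0 and 94.5 (log2 fold change 0.35, adjusted p = 4.90e-04). In ECs the groups overlapped (169 and 158 against 185 and 151), and a stricter gate gave a called log2 fold change of −0.41 there. They overlapped too in fibroblasts (144 and 142 against 158 and 140). *Ccnd3* (chr17:47815767-47910624 of GRCm39, plus strand) rose in BMSCs from 138 and 132 to 185 and 205 (log2 fold change 0.53, adjusted p = 3.07e-06), in CHOs from 70.9 and 70.9 to 111 and 113 (0.66, adjusted p = 8.08e-07), and in SMCs from 89.9 and 90.4 to 125 and 125 (0.47, adjusted p = 0.00251). In ECs it was at 115 and 111 in controls and at 104 and 88.2 in mutants (log2 fold change −0.23, adjusted p = 0.0530).

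With cycling barcodes left out, *Ccnd1* had log2 fold changes of 0.78 in ECs, 1.26 in BMSCs, −0.98 in CHOs and 0.82 in SMCs, and *Ccnd2* of 0.36 in BMSCs, 0.60 in CHOs, −0.55 in SMCs and −0.58 in OBs, all called. *Ccnd3* rose there in BMSCs (0.52), CHOs (0.68) and SMCs (0.50), and its fall in ECs was called (−0.28, adjusted p = 0.0157). DESeq2 did not call *Ccnd1* or *Ccnd3* in SMCs, nor *Ccnd2* in OBs.

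**Figure D4:**
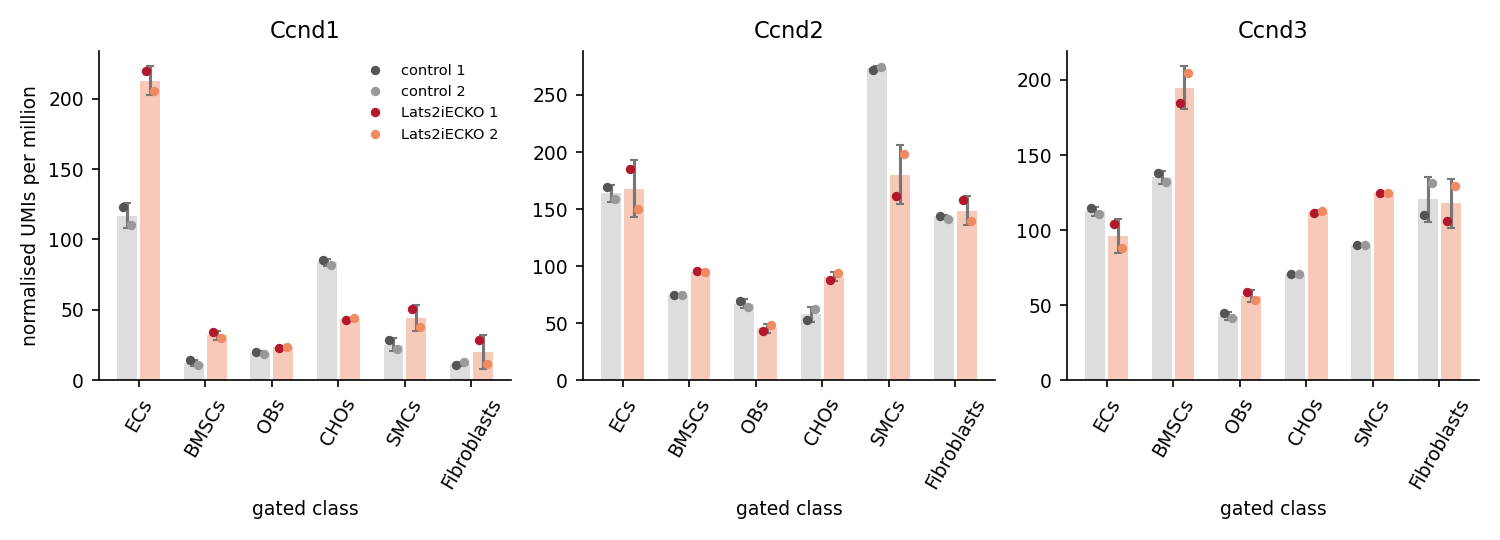
Levels of Ccnd1, Ccnd2 and Ccnd3 (normalised CPM, linear axes from 0) in 6 stromal classes. Bars are means of 2 control (grey) and 2 mutant (red) libraries, points are libraries and error bars SDs. Ccnd1 rises in ECs from 123 and 111 to 220 and 205 and falls in CHOs from 85.2 and 82.1 to 42.8 and 44.3, while Ccnd2 falls in SMCs from 272 and 274 to 162 and 199.

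In BMSCs, 11 of 40 members rose and none fell, where 29.9% of all genes were called, 15.8% as higher and 14.1% as lower. Besides the 3 D cyclins they were *E2f1*, a factor of S phase entry, *Ccne2*, an E-type cyclin, and *Pcna* of the S set, then *Cdk1*, *Ccnb2*, *Kif23* and *Cenpf* of the G2/M set, and *Hmgb2*. *E2f1* stood at 2.04 and 1.87 normalised CPM in controls (27 and 24 UMIs) and at 3.99 and 7.73 in mutants (17 and 41 UMIs), with no overlap. Its log2 fold change was 1.62 (standard error 0.313, adjusted p = 5.73e-04). *Ccne2* rose from 3.09 and 3.19 to 7.04 and 5.28 (log2 fold change 0.95, adjusted p = 0.00863) and *Pcna* from 47.4 and 44.2 to 55.2 and 55.3 (0.27, adjusted p = 0.0205). *Cdk1* (log2 fold change 1.02), *Cenpf* (1.01), *Kif23* (1.18), *Ccnb2* (0.76) and *Hmgb2* (0.24) were the other called members. For *Mki67* (13.4 and 17.8 against 13.8 and 11.3) and *Top2a* (15.6 and 11.1 against 15.7 and 13.8) the groups overlapped, and neither was called. The BMSC markers of the gate summed to 20537 and 20840 CPM without TMM in mutants and 27910 and 27818 in controls. OB markers in BMSCs summed to 333 and 308 against 615 and 682. Median mitochondrial percentages were 4.27 and 4.23 against 3.18 and 3.31. The part of these differences in the results was not tested.

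The share of cycling BMSCs overlapped between groups, with 8 of 631 (1.27%) and 5 of 772 (0.648%) in mutants and 19 of 1941 (0.979%) and 14 of 1871 (0.748%) in controls. Of the cycling BMSCs of controls, 75.8% had 2 or more erythroid UMIs and 84.8% were called as doublets, against 23.1 and 46.2% in mutants and 2.90% for either measure in BMSCs that were not cycling. Among BMSCs with under 2 erythroid UMIs, 6 of 618 and 4 of 742 were cycling in mutants and 6 of 1880 and 2 of 1797 in controls, a ratio of 3.51 with no overlap. In those barcodes 17 members rose, 10 of the G2/M set among them, and without called doublets 21 rose, with *Mki67* at a log2 fold change of 0.97. Over all libraries these 2 settings left 18 and 12 cycling BMSCs, and they took a larger part of the cycling barcodes from controls than from mutants. These counts are therefore a description and support no statement on the set. The count of 11 was 4 without mutant replicate 2 and 7 without control replicate 2, and DESeq2 called 5 members.

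In SMCs 27 of 40 members passed the filter on low counts. Several of them had 0 to 7 UMIs in each control library and passed through the mutant libraries, where they were higher, so the number called among them is a description and supports no statement on the set. Of the 27, 14 rose and 1 (*Ccnd2*) fell, where 30.0% of genes were called, 16.0% as higher and 14.0% as lower. With no filter on low counts 18 of 40 were higher and 1 lower. *Cdk1* had 3 and 0 UMIs in controls and 29 and 48 in mutants, *Birc5* 1 and 2 against 26 and 20, and *Kif23* 2 and 0 against 16 and 19. The mutants lay above the controls in each, and the fitted log2 fold changes of 3.65, 2.92 and 3.07 depend on the count added to such low values and set no bound. Better covered was *Mki67*, at 13.5 and 7.75 normalised CPM in controls and 18.4 and 21.9 in mutants (log2 fold change 0.93, standard error 0.282, adjusted p = 0.0140). DESeq2 did not call it (adjusted p = 0.232), nor did edgeR without called doublets (log2 fold change 0.25, adjusted p = 0.699). *Cdc20* (2.07), the activator of the anaphase-promoting complex, *Ube2c* (1.75), *Ccnb2* (2.14), *Ccnb1* (2.90), *Nusap1* (1.72) and *Cenpf* (2.01) also rose, with 0 to 7 UMIs per control library. *Hmgb2* rose by 0.51. *Top2a* (10.3 and 8.40 against 12.0 and 16.9, adjusted p = 0.129) and *Pcna* (43.0 and 51.7 against 57.4 and 43.9) were not called.

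Cycling SMCs numbered 7 of 381 (1.84%) and 6 of 415 (1.45%) in mutants and 2 of 255 and 2 of 259 in controls, a ratio of 2.11 on 17 barcodes in all. Each interval of a mutant overlapped that of each control. Of the cycling SMCs, 6 of 13 in mutants and 1 of 4 in controls were called as doublets. Without called doublets the shares overlapped (5 of 378 and 2 of 399 against 2 of 237 and 1 of 248). The 4 members then called were *E2f1*, *Ccnd1* and *Ccnd3* (higher) and *Ccnd2* (lower). Only 3 G2/M members were left to test, and none was called (*Tpx2* −1.01, *Cenpe* −0.64 and *Mki67* 0.25). The rise of the other G2/M members could not be tested in that setting. Among SMCs with under 2 erythroid UMIs the counts were 5 of 368 and 4 of 394 against 1 of 248 and 0 of 251, and 9 of 11 G2/M members tested rose. The 16 leukocyte markers summed to 178 and 120 CPM without TMM in SMCs of mutants and to 21.6 and 26.5 in controls, with 3 of the markers at 0 in every library, and the SMC markers that made the gate to 16178.5 and 16638 against 28671 and 30655.5. The part of the leukocyte RNA in these results was not tested. In the paper, *Myh11*-negative cells, described there as likely myofibroblasts, were enriched in the SMC cluster of mutants. The makeup of the gated class may thus differ between genotypes. Its part in the results of SMCs, D cyclins and brakes of the cycle included, was not tested. DESeq2 and a stricter gate each called 2 members.

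In CHOs, the stromal class with the highest summed control level of the G2/M set, members of both phase sets were lower in mutants. Of 40 members, 23 fell and 2 (*Ccnd2* and *Ccnd3*) rose, where 45.2% of all genes were called, 22.4% as lower and 22.8% as higher. The fall took in 15 of 20 members of the G2/M set, 7 of 16 of the S set and *Ccnd1*, and the median log2 fold change was −0.58 over the G2/M set and −0.23 over the S set, beside 0.00 over all genes. *Mki67* stood at 39.0 and 27.2 normalised CPM in controls and at 21.3 and 16.6 in mutants, and *Top2a* at 46.4 and 34.4 against 28.4 and 19.99. Mutants lay below controls in both genes, with log2 fold changes of −0.80 (standard error 0.150, adjusted p = 0.00135) and −0.74 (standard error 0.153, adjusted p = 0.00261). *Cenpe*, the kinetochore motor, fell from 12.3 and 11.7 to 6.83 and 6.07 (log2 fold change −0.90, adjusted p = 6.74e-05). *Kif11* (−0.65), *Ccnb2* (−0.54), *Ccna2* (−0.56), *Plk1* (−0.91) and *Bub1b* (−0.60) fell too. DESeq2 called 11 members lower, 6 of the G2/M set among them, and the same 2 higher, with *Top2a* and *Bub1b* no longer called (adjusted p = 0.0776 and 0.0591).

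Of the S set in CHOs, *Mcm2* fell from 10.2 and 8.26 to 4.64 and 4.90 (log2 fold change −0.95, standard error 0.138, adjusted p = 2.56e-04). *Mcm5*, shown above with its paired E2F matches, fell from 10.1 and 7.66 to 4.91 and 5.13 (log2 fold change −0.82, standard error 0.149, adjusted p = 0.00115). *Mcm6*, with 3 E2F matches, was at 26.1 and 21.8 in controls and 25.1 and 22.7 in mutants (adjusted p = 0.988), so the groups overlapped. *Rrm1* (−0.44), a subunit of ribonucleotide reductase, and *Tyms* (−0.43), the thymidylate synthase, also fell. *Pcna* was at 58.9 and 51.5 against 57.9 and 59.3 and was not called.

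The share of cycling CHOs was 1.75% ± 0.130 (SD, n = 2) in mutants and 3.30% ± 0.0897 (SD, n = 2) in controls, a ratio of 0.532. The mutants had 40 of 2168 (interval 1.32 to 2.504%) and 39 of 2348 (1.18 to 2.26%) and the controls 48 of 1428 (2.49 to 4.43%) and 48 of 1484 (2.39 to 4.27%). Both mutants lay below both controls, with the interval of mutant replicate 2 below both of theirs and that of mutant replicate 1 overlapping them. The numbers of cycling CHOs in the libraries were thus close, at 40 and 39 against 48 and 48, while the CHOs counted were more in mutants. By the S set the shares were 1.11 and 1.06% in mutants and 2.73 and 1.75% in controls. Without thinning they were 4.32 and 3.95% against 6.07 and 5.62%.

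More of the CHOs of mutants carried a UMI of the hypertrophic markers *Ihh*, *Panx3* or *Col10a1* (76.7 and 77.6%, against 59.9 and 56.3% in controls). Within these barcodes 2.05 and 1.76% were cycling in mutants and 4.56 and 3.95% in controls. Within barcodes without such a UMI it was 1.19 and 1.33% (6 of 506 and 7 of 525) against 1.57 and 2.31% (9 of 572 and 15 of 649). The groups overlapped in neither part. The marker UMI was sought before thinning, and cycling CHOs held more UMIs than others (medians 23645 and 12507). The split therefore also depends on depth. Among CHOs with under 2 erythroid UMIs, *Col10a1*, the collagen of hypertrophic cartilage, stood at 75.1 CPM without TMM in cycling CHOs of mutants and 159 in those of controls, against 5851 and 3304 in the other CHOs. *Ihh* stood at 9.47 and 4.996 against 241 and 151. *Panx3* stood at 156 and 162 against 134 and 234. Over all CHOs, the CHO markers of the gate summed to 41537.5 and 40888 CPM without TMM in mutants and 63841 and 63614 in controls. The median CHO had 11734.5 and 11593.5 UMIs in mutants and 13616.5 and 13910 in controls. The part of these differences, and of the larger share with hypertrophic markers, in the results of CHOs was not tested, D cyclins included.

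The fall of mitotic genes in CHOs did not hold when called doublets were left out. Of the cycling CHOs, 57.3% in controls and 30.4% in mutants were called as doublets, against 4.12 and 3.97% of other CHOs. Without them 31 of 2086 (1.49%) and 24 of 2230 (1.08%) CHOs were cycling in mutants and 22 of 1352 (1.63%) and 19 of 1389 (1.37%) in controls, so that the groups overlapped. None of 20 G2/M members was then called by edgeR, at a median log2 fold change of −0.06, while *Tyms*, *Mcm2*, *Mcm5* and *Ccnd1* were still lower and *Ccnd2* and *Ccnd3* higher, with *Pcna* and *Ccne2*. The number of calls in CHOs went from 25 to 8. Cycling CHOs had more UMIs than others (medians 23645 and 12507), and whether the doublet score marked dividing cells or joined cells was not tested. With under 2 erythroid UMIs the counts stayed near the main ones, with 16 of 20 G2/M members lower and shares of 1.68 and 1.41% against 2.72 and 2.67%.

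RNA in empty droplets (barcodes with 10 to 100 UMIs) also held members and differed between genotypes. Summed over the G2/M set it stood at 483 and 470 CPM without TMM in mutants and 902 and 869 in controls, and over the S set at 379 and 372 against 765 and 721. On the same scale the G2/M set stood at 368 and 240 in ECs of mutants against 151 and 155 in controls, at 131 and 163 against 68.7 and 45.3 in SMCs, and at 230 and 162 against 328 and 266 in CHOs. The part of free RNA in the results of any class was not tested.

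**Figure D5:**
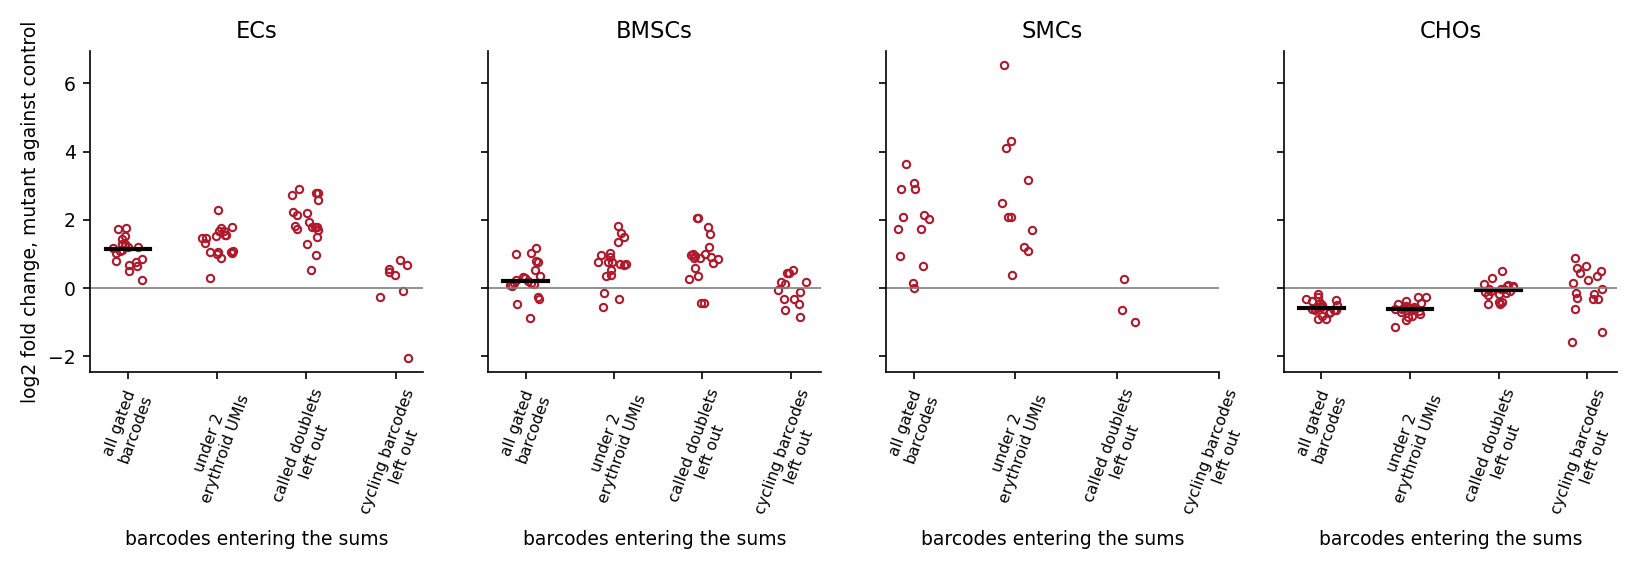
Log2 fold change (mutant against control) of members of the G2/M set in ECs, BMSCs, SMCs and CHOs for 4 choices of barcodes entering the sums. Each circle is 1 member that could be tested, and black bars give the median where all 20 were. Cycling barcodes left out were counted before thinning. In CHOs the median lies at −0.58 with all gated barcodes and at −0.06 without called doublets, in ECs the circles lie higher without called doublets, and in SMCs no member could be tested with cycling barcodes left out.

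In OBs, with 145 and 150 barcodes in mutants and 688 and 731 in controls, 1 of 39 members tested was called, the fall of *Ccnd2*, where 4.49% of genes were called and 1.11% as lower. *Mki67* stood at 6.58 and 15.4 in controls and 15.2 and 4.11 in mutants and *Top2a* at 6.99 and 19.2 against 11.9 and 4.93, so libraries of a genotype differed more than the genotypes. *Ccnd3* was at 44.8 and 41.2 against 59.0 and 53.4 (log2 fold change 0.38, adjusted p = 0.0786) and *Pcna* at 21.3 and 27.4 against 31.4 and 23.4. Cycling OBs were 4 of 144 in mutant replicate 1 and 0 of 148 in mutant replicate 2, which allows a share of up to 2.03%, against 2 of 682 and 11 of 721 in controls. Without called doublets 10 members were called, 9 of them higher. In that setting 6 cycling OBs were left over all libraries, with 0 in mutant replicate 2.

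In fibroblasts 10 of 40 members could be tested and edgeR called none, also at an unadjusted p under 0.05, as did DESeq2, where 1.53% of genes were called. *Ccnd3* stood at 110 and 131 in controls and 106 and 129 in mutants, and *Pcna* at 45.2 and 47.2 against 49.3 and 49.9. *Mki67* and *Top2a* were at 0 to 8.83 normalised CPM and were not tested. No fibroblast of mutants was cycling (0 of 106 and 0 of 134). A limit of 3 counts, which lies below the exact interval used above, allows shares of up to 2.83 and 2.24%.

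Erythroid precursors, which the depletion aimed to remove, were nearly all cycling: 82.3 and 82.9% of barcodes in mutants and 93.3 and 88.1% in controls. Erythroid precursors divide as they mature. Of 39 members tested 16 rose and 9 fell, where 24.6% of genes were called, 14.8% as higher and 9.77% as lower. With these barcodes 13 of 20 G2/M members were higher and none lower, and 9 of 16 S set members were lower and 1 (*Rrm2*) higher. Under the study's full barcode filter, which also leaves out barcodes with over 5% hemoglobin UMIs or with a complexity (log10 genes over log10 UMIs) of 0.8 or less, 2 members were higher and 22 lower, with 1 and 8 of the G2/M set, so this split between the sets did not hold there. *Mcm3* stood at 254 and 255 normalised CPM in controls and 169 and 179 in mutants (log2 fold change −0.55, standard error 0.0890, adjusted p = 2.65e-04), and *Rrm1* (−0.47) and *Pcna* (−0.29) fell as well. *Ube2c* stood at 344 and 321 in controls and 753 and 876 in mutants (log2 fold change 1.29, standard error 0.0899, adjusted p = 2.37e-08). *Nusap1* (0.92), *Birc5* (0.76), *Cenpf* (0.71), *Kif23* (0.61), *Kif11* (0.52), *Ccna2* (0.52), *Rrm2* (0.51) and *Ccnd2* (0.78) were higher too. *Mki67* (1009 and 858 against 994 and 943) and *Top2a* (668 and 610 against 691 and 806) were not called, nor was *Ccnd3* (284 and 291 against 254 and 246), and *Ccnd1* was too low to test.

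The shares of precursors with S set members count the same UMIs as the sums of the set, so they are a description. At least 3 S set members were found in 58.6 and 58.1% of barcodes in mutants and 88.4 and 84.7% in controls. Of cycling precursors, 63.4 and 65.7% in mutants and 88.4 and 87.3% in controls carried them. The direction of several members depended on scaling and on the barcodes. In CPM without TMM the median of all genes lay at −0.48, and *Tpx2*, *Aurka*, *Hmgb2*, *Ccnb2*, *Cdk1* and *Ccnb1* were then lower in mutants. Under the full barcode filter, *Birc5* (−0.49), *Rrm2* (−0.91) and *Ccna2* (−0.60) were among 16 members that turned negative and were called before or after.

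In leukocytes, with 22 to 92 barcodes per library, edgeR and DESeq2 called none of the 35 members tested, 4 had an unadjusted p under 0.05, and 3.17% of genes were called. *Top2a* stood at 324 and 401 in controls and 446 and 358 in mutants, and *Mki67* at 253 and 292 against 211 and 222 (adjusted p = 0.406). *Ccnd2* (118 and 104 against 83.0 and 170), *Ccnd3* (189 and 218 against 277 and 284) and *Pcna* (82.4 and 172 against 93.4 and 188) were not called. Leaving out mutant replicate 1 gave 3 calls and leaving out mutant replicate 2 gave 1. The shares of cycling barcodes overlapped, at 40.9 and 34.6% in mutants and 37.8 and 45.5% in controls.

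Whether the genotype effect on a member in 1 class differed from the mean effect in the other 5 stromal classes was tested in 1 fit with the library as a block. The classes share the same 4 libraries. The calls fell mostly on the D cyclins. CHOs had 6 calls, where 14.9% of genes were called. *Ccnd1* differed by −1.69 on the log2 scale (standard error 0.126, adjusted p = 1.45e-09), *Ccnd2* by 0.85 and *Ccnd3* by 0.49, and *Cdc20* (−1.57), *Tpx2* (−1.22) and *Rrm1* (−0.76) were the others. ECs had 2 (*Ccnd1* 0.45 and *Ccnd3* −0.62, 14.4% of genes called). BMSCs had 3, where 5.75% of genes were called (*Ccnd1* 0.98, *Ccnd2* 0.41 and *E2f1* 1.40), and 1 without mutant replicate 2 or either control library. OBs had 1 (*Ccnd2* −0.71, 4.86% of genes called). SMCs had 3 (*Ccnd2* −0.70, and *Cdk1* and *Aurkb*, whose control libraries held 0 to 3 UMIs, 10.5% of genes called), with 1 without mutant replicate 2 or control replicate 2 and 5 without mutant replicate 1. Fibroblasts had 0 calls in edgeR, where 1.68% of genes were called. Among G2/M members in CHOs the difference passed the test for *Cdc20* and *Tpx2*. Both genes were too low for a test of genotype in fibroblasts, and *Cdc20* had few UMIs in SMCs of controls. The sizes of these differences therefore depend on the count added to low values. This holds too for *E2f1* in BMSCs, which was too low for a test in OBs and fibroblasts. Within CHOs themselves *Cdc20* was not called as changed (log2 fold change −0.27), and *Tpx2* stood at 0.099 without called doublets.

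Other cell cycle genes outside the 40 members were read from 5 lists, whose counts stand beside 38.3% of all genes called in ECs, 29.9% in BMSCs, 4.49% in OBs, 45.2% in CHOs, 30.0% in SMCs and 1.53% in fibroblasts. Of 34 mitosis genes, 22 of the 32 tested rose and none fell in ECs, and 1 rose and 22 fell of 34 in CHOs. With DESeq2, 6 rose in ECs and 13 fell in CHOs, and without called doublets 25 of 28 rose in ECs and 3 fell in CHOs. Genes with few UMIs in controls, such as *Gtse1* below, passed the filter on low counts through the mutant libraries, where they were higher. The counts of mitosis genes in ECs are therefore a description and support no statement on the list. In SMCs 2 of 8 tested rose, in BMSCs 3 of 32, in OBs none of 30 and in fibroblasts none of 3, with 1 each at an unadjusted p under 0.05 (edgeR). In ECs *Pbk*, a mitotic kinase, rose by 2.02 on the log2 scale, and *Gtse1*, which holds p53 down in G2, from 0.389 and 0.634 to 2.15 and 2.97 normalised CPM, on a few UMIs per control library. In CHOs the checkpoint kinase *Ttk* fell by 1.09 on the log2 scale, from 4.36 and 2.63 to 1.91 and 1.36 normalised CPM, but was not called without called doublets (−0.62). Of 19 replication genes, 4 of 18 rose in ECs and none fell, 3 rose and 6 fell in CHOs, 5 of 19 rose in BMSCs, among them *Ung* (1.43), the uracil glycosylase, and 2 of 9 fell in SMCs. Of the 11 kinases and their switches, 5 of 10 rose and 1 fell in ECs, 4 rose and 1 fell of 10 in BMSCs, 1 rose and 2 fell in CHOs, and 3 of 8 rose in SMCs, led by *Cks2* (1.94). Of the 14 transcription factors, 1 of 12 rose in ECs, 1 rose and 4 fell of 12 in CHOs, 2 rose and 1 fell of 12 in BMSCs, and edgeR called none of 7 in SMCs, also at an unadjusted p under 0.05.

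Brakes of the cycle are genes that hold cells in G1 or out of division. Of 14 such genes, 7 rose and 3 fell in ECs, 9 rose and 2 fell in BMSCs, 7 rose and 1 fell in CHOs, 6 rose and 2 fell in SMCs, 3 of 13 rose in OBs and 1 of 11 rose in fibroblasts. *Cdkn1a*, the CDK inhibitor p21, rose in BMSCs from 39.1 and 35.9 to 152 and 118 normalised CPM (log2 fold change 1.83, standard error 0.0945, adjusted p = 2.87e-11). In CHOs it rose from 112 and 139 to 388 and 354 (log2 fold change 1.56, adjusted p = 1.51e-07), with *Ccng2* (1.08). In SMCs *Cdkn2a*, the locus of p16 and p19Arf, stood at 1.28 and 1.94 in controls and 35.1 and 25.7 in mutants (adjusted p = 1.03e-08, edgeR), and its neighbour *Cdkn2b*, which encodes p15, at 1.28 and 1.94 against 21.3 and 13.2. The control libraries of SMCs held only a few UMIs of either gene, so no fold is given. *Cdkn2b* also rose in ECs (2.02), where it went from 4.86 and 2.75 to 16.0 and 15.3. In OBs *Cdkn2d*, *Btg2* and *Btg1* rose (0.94, 0.93 and 0.86), and in fibroblasts *Cdkn1c*, which encodes p57, from 20.6 and 23.2 to 103 and 66.0, though a stricter gate left it uncalled (0.67).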

How the data were processed

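Droplet scRNA-seq was performed on 2 Lats2iECKO and 2 control libraries. The deposited matrices hold expected counts of UMIs, which the authors made from trimmed reads (cutadapt 3.5) with STARsolo 2.7.10a against GRCm39 and GENCODE annotation with transgene sequences added, counting exons and introns, sharing multi-mapped UMIs by expectation maximisation and leaving barcodes unfiltered. Genes that share sequence are therefore estimates, and 9.09 to 9.95% of entries were fractional. Values were rounded after summing.

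Barcodes with at least 1000 UMIs and 800 genes (7606 and 7649 in controls, 5749 and 6703 in mutants) and at most 15% mitochondrial UMIs were gated by summed markers, with at least 3 markers of a class detected and a score at least 2 times that of the next class; 3687 barcodes lay near that margin, at 1.5 to 2.5. The members, marker lists and other lists were chosen with earlier results of these data known. Counts were summed per library and class and tested with edgeR 4.0.16 (quasi-likelihood test, TMM, Benjamini-Hochberg adjustment), with R 4.3.3 and limma 3.58.1, after a filter on low counts, and DESeq2 1.42.0 was an alternative. Differences between classes came from 1 edgeR fit of 6 stromal classes with the library as a block. Fits with cycling barcodes left out dropped those with at least 3 G2/M members before thinning. Shares were taken after thinning to 2000 UMIs, with shallower barcodes left out, and have exact Clopper-Pearson 95% intervals, which cover counting error only, as does the limit of 3 counts for a share of 0. Doublets were called by rank of the scrublet score (scanpy 1.11.5, Python 3.11.15) at 0.8% per 1000 barcodes, which gave 264 and 359 in mutants and 463 and 468 in controls, since its automatic threshold marked 3 and 74 in mutants and 209 and 218 in controls. Scripts were tested on simulated data. Named genes were *Mki67*, *Top2a*, *Pcna* and the D cyclins in each class, up to 10 further called members with the smallest adjusted p, and up to 3 other cell cycle genes per class with the largest change. Members named beyond these were chosen after their values were seen.

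Replicate numbers were shared by the groups, but deviations of same-numbered libraries correlated between −0.12 and 0.11 over the classes, so with 2 pairs the numbers were not taken as pairs.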

Additional observations from a re-analysis of the deposited data

Results flagged for a closer look

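For 15 values the effect of genotype on a member in 1 stromal class differed from the mean effect in the other 5 classes by edgeR's test of the difference (adjusted p of 0.05 or less). These were 2 members in ECs, 3 in BMSCs, 1 in OBs, 6 in CHOs, 3 in SMCs and 0 in fibroblasts, where the same test called 14.4, 5.75, 4.86, 14.9, 10.5 and 1.68% of all genes. For *Ccnd1* the difference on the log2 scale was 0.45 in ECs, 0.98 in BMSCs and −1.69 in CHOs. For *Ccnd2* it was 0.41 in BMSCs, −0.71 in OBs, 0.85 in CHOs and −0.70 in SMCs. For *Ccnd3* it was −0.62 in ECs and 0.49 in CHOs. The other members were *E2f1* in BMSCs (1.40), *Tpx2* (−1.22), *Cdc20* (−1.57) and *Rrm1* (−0.76) in CHOs, and *Cdk1* (4.77) and *Aurkb* (4.59) in SMCs. The values of *Cdk1* and *Aurkb* in SMCs rest on 0 to 3 UMIs per control library and depend on the count added to such low values. *Cdc20* and *Tpx2* were too low for a test of genotype in fibroblasts, and *E2f1* in OBs and fibroblasts. The sizes of their differences depend on that count as well.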

How the results depend on the processing

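Members called numbered 22 in ECs, 11 in BMSCs, 1 in OBs, 25 in CHOs, 15 in SMCs, 25 in erythroid precursors and 0 in leukocytes. With DESeq2 they numbered 12 in ECs, 5 in BMSCs, 0 in OBs, 13 in CHOs and 2 in SMCs, and with only genes found in 20% of cells 4, 4, 2, 3 and 3. A stricter gate gave 13 in ECs and 2 in SMCs. Without called doublets there were 21 in BMSCs, 10 in OBs, 8 in CHOs and 4 in SMCs, and with cycling barcodes left out 3 in ECs, 6 in BMSCs, 13 in CHOs and 4 in SMCs. With no filter on low counts there were 19 in SMCs, 2 in OBs, 15 in erythroid precursors and 1 in leukocytes. Among barcodes with under 2 erythroid UMIs, a setting chosen after seeing the data, there were 17 in BMSCs and 2 in OBs. Without OBs in the joint fit, differences of effect numbered 4 in ECs, 11 in CHOs and 5 in SMCs, and differences of control level 9 in SMCs. The cause of these shifts was not tested beyond the fewer genes or barcodes of a setting. Throughout, shares of all genes called are given for the main settings only. Counts under other settings therefore do not show whether members shifted more than other genes.

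Leaving out 1 library gave 12 to 23 members called in ECs, 4 to 12 in BMSCs, 1 to 4 in OBs, 19 to 34 in CHOs, 10 to 15 in SMCs, 0 to 0 in fibroblasts, 18 to 24 in erythroid precursors and 0 to 3 in leukocytes. The lowest count in ECs was without mutant replicate 1 and in BMSCs without mutant replicate 2. Differences of effect numbered 2 to 3 in ECs, 1 to 3 in BMSCs, 1 to 1 in OBs, 4 to 8 in CHOs, 1 to 5 in SMCs and 0 to 0 in fibroblasts. Differences of control level numbered 10 to 13 in ECs, 4 to 6 in BMSCs, 10 to 22 in OBs, 34 to 38 in CHOs, 2 to 9 in SMCs and 3 to 10 in fibroblasts.

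The log2 ratio of cycling shares was 1.497 in ECs, 0.15 in BMSCs, −0.91 in CHOs, 1.08 in SMCs, −0.14 in erythroid precursors and −0.14 in leukocytes. Leaving out 1 library it ran from 1.10 to 2.06 in ECs, −0.42 to 0.55 in BMSCs, −0.99 to −0.84 in CHOs, 0.89 to 1.24 in SMCs, −0.18 to −0.094 in erythroid precursors and −0.27 to −0.00059 in leukocytes. By the S set it was 0.24 in ECs, −0.41 in BMSCs, −1.05 in CHOs, 0.40 in SMCs, −0.57 in erythroid precursors and −0.92 in leukocytes. Without called doublets it was 2.71 in ECs, 1.92 in BMSCs, −0.23 in CHOs and 0.55 in SMCs, and with under 2 erythroid UMIs 1.81 in BMSCs and 2.56 in SMCs. Without thinning it was −0.50 in CHOs, 0.60 in SMCs and −0.031 in erythroid precursors. In BMSCs, where the groups overlapped, the sign also turned by 2 (−0.039) and 4 G2/M members (−0.050) and when thinned to 1000 UMIs (−0.076), while both mutants lay above both controls without thinning (0.26) and with a stricter gate (0.76). OBs, with 0 cycling barcodes in a mutant library, stood at 0.61, and at −0.29 by the S set and −0.20 without thinning. The log2 ratio was −0.62 in CHOs without hypertrophic markers. By 2 G2/M members it was 0.78 in ECs and 0.60 in SMCs, and with a stricter gate 0.90 in ECs and 1.53 in SMCs. In SMCs the groups overlapped in both settings, and the stricter gate left 5 cycling SMCs in all. In erythroid precursors the ratio was −0.24 by 4 G2/M members and −0.25 when thinned to 1000 UMIs.

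Direction turned for 36 values of single members, counting members called with all gated barcodes or under the alternative. Leaving out cycling barcodes, counted without thinning, removes UMIs of the G2/M members by construction. With cycling barcodes left out these were, in ECs, *Bub1b* (−2.04), *Ccnb2* (−0.096), *Cdc20* (−0.25) and *Hmgb2* (−0.022) and, in CHOs, *Aurka* (0.59), *Ccnb2* (0.36), *Cenpe* (0.24), *Hmgb2* (0.61), *Rrm2* (0.055) and *Tpx2* (0.87). Without called doublets they were *Mki67* in BMSCs (0.97), *Hmgb2* in OBs (0.86) and, in CHOs, *Bub1* (0.31), *Ccna2* (0.059), *Kif23* (0.12) and *Tpx2* (0.099). *Mki67* in BMSCs was 0.96 with under 2 erythroid UMIs, and *Ccnd2* in ECs −0.41 with a stricter gate. Under the study's full barcode filter they were, in erythroid precursors, *Aurka* (−0.26), *Aurkb* (−0.26), *Birc5* (−0.49), *Ccna2* (−0.60), *Ccnb1* (−0.39), *Ccnb2* (−0.94), *Cdc20* (−0.36), *Cdk1* (−0.55), *Gmnn* (−0.50), *Kif11* (−0.29), *Kif23* (−0.068), *Mki67* (−0.50), *Nusap1* (−0.15), *Rrm2* (−0.91), *Tpx2* (−0.38) and *Tyms* (−0.44). Leaving out 1 library, *Birc5* ran from −2.45 to 1.51 and *Ccna2* from −7.57 to 1.18 in OBs, lowest without mutant replicate 1, and these values depend on the count added to low counts. Of the other values of single members, 3462 stayed on their side of the threshold, 238 were no longer called and 120 became so.

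With the replicate block, 24 members were called in ECs, 12 in BMSCs, 1 in OBs, 32 in CHOs, 15 in SMCs and 24 in erythroid precursors. Since the correlation of same-numbered libraries was −0.12 in erythroid precursors, a crossed replicate block was added after seeing the data, which gave 3 members in OBs and 27 in erythroid precursors.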

Other observations

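Erythroid precursors also differed in genes outside the 40 members. Of the brakes of the cycle, 9 of 12 tested rose and 1 fell, where 24.6% of all genes were called. *Cdkn2d*, which encodes the CDK4 and CDK6 inhibitor p19Ink4d, stood at 21.2 and 21.8 normalised CPM in controls and at 178 and 239 in mutants (log2 fold change 3.28, adjusted p = 1.14e-10, edgeR). *Cdc25b*, a phosphatase that activates CDK1, rose from 19.5 and 19.5 to 99.99 and 104 (log2 fold change 2.39), and *Cdkn1a* from 2.61 and 4.11 to 16.6 and 14.9 (2.22). Of 34 mitosis genes 14 rose and none fell, and of 19 replication genes 2 rose and 6 fell. These values rest on which barcodes entered. Under the study's full barcode filter *Cdkn2d* (0.39) and *Cdc25b* (−0.16) were not called, *Cdkn1a* was still called as higher (1.83), 5 of 11 brakes were higher and 3 lower, no mitosis gene was higher and 9 were lower, and 11 replication genes were lower. In leukocytes *Cdkn1a* was higher (log2 fold change 1.27) and *E2f8*, a repressor of the E2F family, lower (−1.07), neither called by DESeq2.

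Barcodes that passed the depth limits but no gate were cycling in 82 of 881 and 88 of 1051 cases in mutants and 124 of 992 and 115 of 1000 in controls. Of these cycling barcodes, 65 and 71 in mutants and 106 and 100 in controls carried at least 2 erythroid UMIs.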
